A study of Homo sapiens with 34 samples.

Results

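Proteasome genes were read in 3 human B-ALL cell lines with different fusions, BCR-ABL (BV-173), MLL-AF4 (RS4;11) and ETV6-PDGFRB (NALM-6), under *CCND3* knockdown and under palbociclib. Members were all rows whose symbol starts with PSMA, PSMB, PSMC, PSMD, PSME, PSMF or PSMG followed by a digit, which gave 49 of 17587 listed genes. The 49 rows held 48 genes of the proteasome and its helpers, and *PSMC3IP*, a homologous recombination factor named for binding *PSMC3*, which is no proteasome gene. Of the 48, 16 belonged to the constitutive core, 17 to the regulatory particle, 5 to the immunoproteasome set (*PSMB8*, *PSMB9*, *PSMB10*, *PSME1* and *PSME2*), 7 to assembly chaperones and 3 to the other activators and the inhibitor. In all, 45 of the 48 were listed in all 6 comparisons at a mean level of at least 10 and entered the fits with 11800 genes.

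In each line, cells transduced with a lentiviral vector for an shRNA against *CCND3* and sorted 4 days later were set against cells that carried a scrambled shRNA. Separately, cells given 1 µM palbociclib, an inhibitor of the kinases CDK4 and CDK6, were compared after 3 days with cells given the solvent DMSO. The 12 groups held 3 samples each, except BV-173 with DMSO and NALM-6 with shCCND3, which held 2 (34 samples in all). The tables hold 1 pooled level per group, so no SD within a group is given, the depth per sample is unknown, and the cell line was the replicate in every test (n = 3). Each test asks whether the mean change over the lines differed from 0.

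The proteasome degrades proteins tagged with ubiquitin. Its core particle is a barrel of alpha and beta rings whose *PSMB5*, *PSMB6* and *PSMB7* subunits cut proteins, and the regulatory particle on its end holds 6 ATPases (*PSMC1* to *PSMC6*) that unfold substrates and non-ATPase subunits that bind and strip ubiquitin. In lymphoid cells and under interferon, *PSMB8*, *PSMB9* and *PSMB10* take the places of *PSMB5*, *PSMB6* and *PSMB7*, which makes the immunoproteasome, and *PSME1* and *PSME2* form an alternative cap. These forms favour peptides that are shown on MHC class I molecules.

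*CCND3* itself was lowered to 24.2%, 20.7% and 31.1% of its scrambled level, in NALM-6 first, then RS4;11, then BV-173, and values below are given in this order of lines. All 12 B-lineage markers were listed in every line, though not all at a high level: *MME* was at 2.5 to 6.7 in RS4;11. Of 13 markers of other lineages the summed level was between 118 and 590 per group, against at least 57010 for the B-lineage markers. In scrambled RS4;11 *CSF1R* made up 508 of 588.6. The median log2 ratio of all genes was between -0.01 and 0.00 in each of the 6 comparisons. Of the 48 proteasome genes, 25 have another gene on the opposite strand and 17 have pseudogenes by name (44 in all, 13 of them of *PSMC1*), and whether the counting used strand is not given in the sources used here.

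Promoter windows, from 250 bases before to 50 bases after the start of a gene, were found for 42 of the 48 genes. The immunoproteasome windows are shown since 4 of the 5 hold the IRF element (GAAA, 2 bases of any kind, GAAA, on either strand), the letters bound by interferon regulatory factors. Capitals mark that element in the first 4. In *PSMB9* capitals mark the core of the antioxidant response element, TGANNNNGC, which NRF1 and NRF2 bind when proteasome genes are induced. All sequences are RefSeq's, of GRCh38.p14, read 5′ to 3′ along the gene. *PSMB8* lies on the minus strand at chr6:32843998-32844297, *PSMB10* on the minus strand at chr16:67936801-67937100, *PSME1* on the plus strand at chr14:24135944-24136243, *PSME2* on the minus strand at chr14:24146561-24146860 and *PSMB9* on the plus strand at chr6:32853942-32854241.
PSMB8: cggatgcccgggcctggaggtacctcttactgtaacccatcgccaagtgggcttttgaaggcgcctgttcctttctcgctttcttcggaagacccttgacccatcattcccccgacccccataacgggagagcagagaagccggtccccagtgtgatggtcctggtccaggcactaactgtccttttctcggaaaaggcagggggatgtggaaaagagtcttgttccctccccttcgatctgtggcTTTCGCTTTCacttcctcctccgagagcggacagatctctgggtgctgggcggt
PSMB10: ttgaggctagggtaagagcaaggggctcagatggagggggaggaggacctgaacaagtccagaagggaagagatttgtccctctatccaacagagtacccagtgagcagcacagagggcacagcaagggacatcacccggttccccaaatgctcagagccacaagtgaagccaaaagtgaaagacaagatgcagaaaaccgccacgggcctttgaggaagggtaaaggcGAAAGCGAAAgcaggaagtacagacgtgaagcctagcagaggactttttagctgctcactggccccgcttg
PSME1: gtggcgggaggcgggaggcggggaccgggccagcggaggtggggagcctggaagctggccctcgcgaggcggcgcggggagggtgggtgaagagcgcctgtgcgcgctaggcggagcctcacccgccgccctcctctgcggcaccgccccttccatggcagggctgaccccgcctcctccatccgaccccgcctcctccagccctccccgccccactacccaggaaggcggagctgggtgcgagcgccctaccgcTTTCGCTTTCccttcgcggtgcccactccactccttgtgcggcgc
PSME2: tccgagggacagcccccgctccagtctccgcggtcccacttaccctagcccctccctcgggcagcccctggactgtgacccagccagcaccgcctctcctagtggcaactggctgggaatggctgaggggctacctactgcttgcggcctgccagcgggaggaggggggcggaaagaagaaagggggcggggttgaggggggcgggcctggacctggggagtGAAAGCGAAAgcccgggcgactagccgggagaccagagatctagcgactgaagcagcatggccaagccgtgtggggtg
PSMB9: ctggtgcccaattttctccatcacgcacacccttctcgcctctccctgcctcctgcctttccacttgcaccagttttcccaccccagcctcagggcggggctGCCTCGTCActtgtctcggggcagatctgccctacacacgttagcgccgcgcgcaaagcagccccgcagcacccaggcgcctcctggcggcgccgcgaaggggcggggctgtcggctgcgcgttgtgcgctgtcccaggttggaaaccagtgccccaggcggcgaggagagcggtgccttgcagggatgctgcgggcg

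The element was the same run, GAAAGCGAAA, on 1 strand or the other in all 4 windows. It began 4, 21 and 28 bases before the start in *PSMB8*, *PSMB10* and *PSME2*, and 5 bases after it in *PSME1*. That run, picked after the windows were seen, stood in the windows of 34 of 27305 genes (0.125%), of which 5 were proteasome genes, the fifth being *PSMG4*. The IRF element as such was held by 4.38% of all genes, by 2 of 12 constitutive core genes and by 0 of 16 regulatory particle genes. The other window of *PSMB8*, for another start, does not hold it.

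The windows of *PSMC3* and *PSMG1* are shown because these are the members that the test called. They lie on the minus strand at chr11:47426390-47426689 and chr21:39183402-39183701. Capitals mark the antioxidant core, which occurs 1 time in *PSMC3* and 3 times in *PSMG1*.
PSMC3: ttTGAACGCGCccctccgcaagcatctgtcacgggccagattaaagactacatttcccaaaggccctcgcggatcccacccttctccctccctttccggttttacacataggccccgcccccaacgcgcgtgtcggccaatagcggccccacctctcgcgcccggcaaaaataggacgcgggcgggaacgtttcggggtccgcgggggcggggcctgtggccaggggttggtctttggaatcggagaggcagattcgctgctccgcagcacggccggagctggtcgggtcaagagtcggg
PSMG1: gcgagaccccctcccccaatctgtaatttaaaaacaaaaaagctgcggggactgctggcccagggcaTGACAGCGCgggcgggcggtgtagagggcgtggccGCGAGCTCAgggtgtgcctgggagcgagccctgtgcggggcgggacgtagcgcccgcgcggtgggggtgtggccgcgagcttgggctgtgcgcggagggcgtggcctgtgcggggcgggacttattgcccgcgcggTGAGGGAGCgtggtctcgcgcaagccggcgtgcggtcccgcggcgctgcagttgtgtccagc

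That core was held by 28 of 42 proteasome genes (66.7%), by 47.1% of all genes and by 51.6% of the tested genes. The CCAAT box (CCAAT) was held by 20 of 42 (47.6%) against 39.7% and 43.5%, and both *PSMC3* and *PSMG1* hold it. The ETS site (CCGGAAG) was held by 15 of 42 (35.7%) against 12.2% of all genes and 23.2% of the tested genes, and 9 of the 15 were regulatory particle genes (9 of 16). The cell cycle homology region (TTTGAA) was held by 6 of 42, *PSMC3* among them, against 18.2% of all genes and 13.9% of the tested genes, and the E2F element (TTTGGCGC) by *PSMD5* and *PSMD9* against 0.795% and 1.44%. Motifs may overlap each other in these counts, and a match is only a match of letters.

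Levels per kb of listed transcript length differed strongly among subunits that assemble in equal numbers. In the constitutive core, *PSMA6* was the highest gene and *PSMA5* the lowest in all 12 groups, and the highest level per kb was between 10.2 and 24.1 times the lowest. *PSMA6* averaged 6235 and *PSMA5* 418.6 per kb over the groups. This order rests in part on the listed length. Before division by length the mean level was 6789 for *PSMA6*, 1606 for *PSMA5*, 1606 for *PSMA2* and 1147 for *PSMB5*. *PSMA6* has 4 named pseudogenes, so its level is less certain. In the regulatory particle, *PSMD12* was the lowest in all 12 groups and *PSMD8* the highest in 11, with *PSMD3* above it in the scrambled BV-173 cells, and the ratio of highest to lowest was between 5.28 and 8.45. Here too the length matters, since before division *PSMD12* averaged 1363 and *PSMC6* 1055. *PSME1* and *PSME2*, the alternative cap, were at 1.65 to 2.84 and 1.57 to 2.62 times the geometric mean of the core. These ratios also rest on the listed length, and *PSME2* has 6 named pseudogenes, so its level is less certain too. The 45 genes together made up between 0.433% and 0.616% of the summed level of a group.

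**Figure D1:**
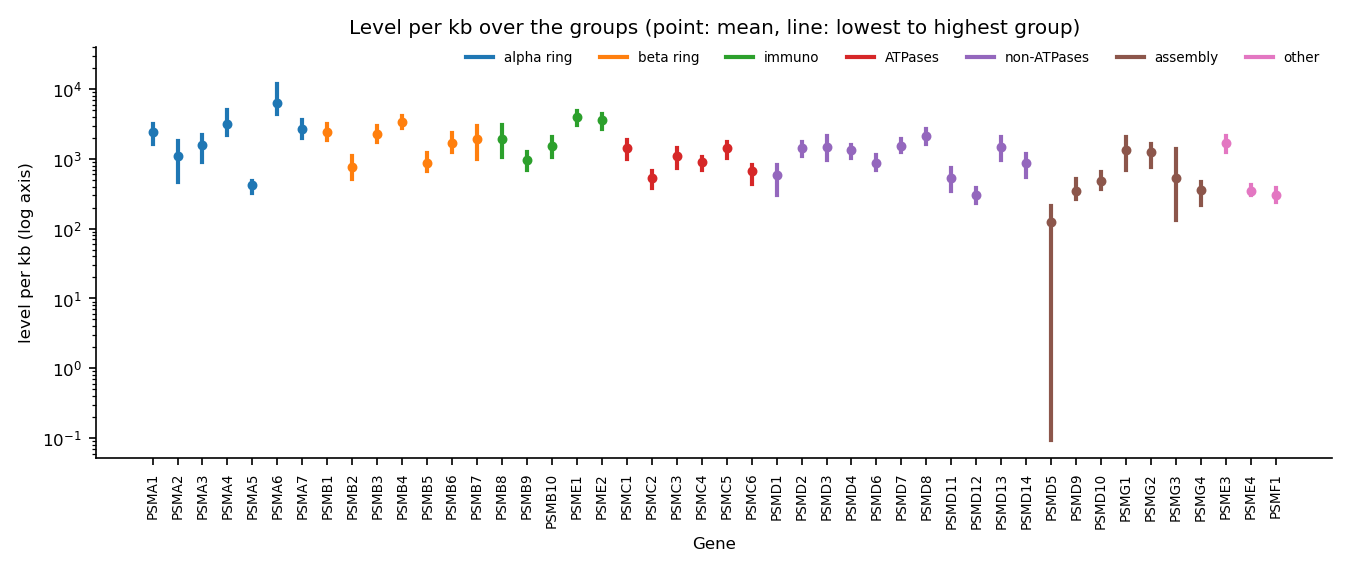
Level per kb (log axis) of 46 proteasome genes by role, with a point for the mean over the groups and a line from the lowest to the highest group. PSMA6 stands highest and PSMD5 reaches below 1 in BV-173.

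Between the lines, levels of most members were alike. Tables were scaled separately, so these are levels set side by side with no test. The highest line mean over the lowest was 1.24-fold at the median of the 45 genes and 1.76-fold at the median of all genes. In *PSMA2* and *PSMG3*, 2 of 45 members (4.44%), the 4 groups of 1 line lay apart from the other 8 with at least a 2-fold gap between line means, against 26.7% of all genes. All genes reach down to a mean level of 10 and the members only to 297.1, and no share at like level was taken here. *PSMG3*, a chaperone of alpha ring assembly, was at 863.6 to 1292 in BV-173, against 294.8 to 486.8 for NALM-6 and 163 to 217 for RS4;11. *PSMA2* was at 674.9 to 1125 in the MLL-AF4 line and 1450 to 2635 in the other 8 groups.

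*PSMD5*, a chaperone that holds *PSMC2* during assembly of the regulatory particle, was listed at under 1 in BV-173. Its level was between 581.7 and 749.8 in the 4 NALM-6 groups and between 416.5 and 503.4 in the 4 RS4;11 groups. In BV-173 it was listed at 0.337 with scrambled shRNA and 0.313 with shCCND3, and it was not listed in the palbociclib comparison of that line. The nearest coding genes on either side on chromosome 9, *FBXW2* and *PHF19*, were listed in all BV-173 groups. *FBXW2* was at 681.1 to 849.5 there against 1469 to 2070 in the 8 other groups. *PHF19* was at 790.2 to 1370 there against 326.2 to 3768, so it overlapped when treated groups were included. With scrambled shRNA and DMSO, *PHF19* was at 1370 and 1283 in BV-173. That lay below the 2394 and 1887 of NALM-6 and the 3768 and 3041 of RS4;11. *PSMA8*, a testis alpha subunit, and *PSMB11*, a thymus beta subunit, were listed only in the NALM-6 palbociclib comparison, at levels of at most 0.786.

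With *CCND3* knockdown, most proteasome genes lay slightly below control in NALM-6 and RS4;11 and slightly above it in BV-173. The median log2 ratio of the 45 members was -0.18, -0.23 and 0.09, where that of all genes was between -0.01 and 0.00. Lower than control were 36, 40 and 11 of 45, against 5946, 6033 and 5949 of all 11800 genes. Since RNA was taken in bulk, fewer cells with a transcript and less of it per cell cannot be told apart. No member passed the limma test across the lines (adjusted p under 0.05, for which percent called was 0 in both directions), and the test also called 0 of 11800 genes, *CCND3* included (log2 ratio -2.00 ± 0.15 SE, n = 3 lines, adjusted p = 0.0557 by limma). At an unadjusted p under 0.05 there were 2852 genes, 13.2% of all lower and 11% higher, and 4 of the 45 members (8.89%), all lower: *PSMA6*, *PSMC3*, *PSMC6* and *PSMD11*. With the intensity trend and robust prior, limma called 1042 genes and 1 member, *PSMC3*.

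By the 1.5-fold rule, 3 members were lower in NALM-6 (6.67%, against 9.89% of all genes), RS4;11 had 1 such member (2.22% against 10.9%) and BV-173 had 0 (against 5.07%). No member was 1.5-fold higher in any of the 3, where 7.53%, 9.35% and 3.67% of all genes were. Of the 8399 genes at or above the mean level of the lowest member, 9.92%, 10.6% and 4.27% were lower by this rule. Higher by it were 5.61%, 6.61% and 2.85% of those genes. Lower in all 3 lines were 10 members (22.2%, against 24.7% of all genes), 8 of them in the regulatory particle, and higher in all 3 were 4 (8.89% against 23.2%). The members lower by 1.5-fold were *PSMC6*, *PSME2* and *PSMG3* in NALM-6 and *PSMG1* in RS4;11. The 45 log2 ratios were narrow, with an SD of 0.22, 0.21 and 0.16, against 0.45, 0.51 and 0.33 for the 8399 genes at or above the mean level of the lowest member.

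With palbociclib the members lay further below control in NALM-6 and RS4;11, and in BV-173 they lay on both sides of it. The median log2 ratio of the members was -0.35, -0.31 and 0.09, and 39, 36 and 19 of 45 were lower than with DMSO. Of all 11800 genes, 6026, 5996 and 5859 were lower. The 1.5-fold rule was met downward by 11 members in NALM-6 (24.4%, against 17.1% of all genes), by 6 for RS4;11 (13.3% against 16.2%) and by 2 for BV-173 (4.44% against 13.6%). Upward it was met by 0 members in each line, against 18%, 15.1% and 13.7% of all genes. Of the 8399 genes at or above the mean level of the lowest member, 18.2%, 16% and 14.2% were lower by this rule. Higher by it were 12.2%, 11.3% and 10.4% of those genes. Lower in all 3 lines were 16 members (35.6% against 29.2% of all genes), 11 of them in the regulatory particle, and higher in all 3 were *PSMD9*, *PSME3* and *PSMF1* (6.67% against 27.8%). Between DMSO and palbociclib the 45 genes went from 0.564% to 0.488%, from 0.616% to 0.526% and from 0.480% to 0.480% of the summed level.

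**Figure D2:**
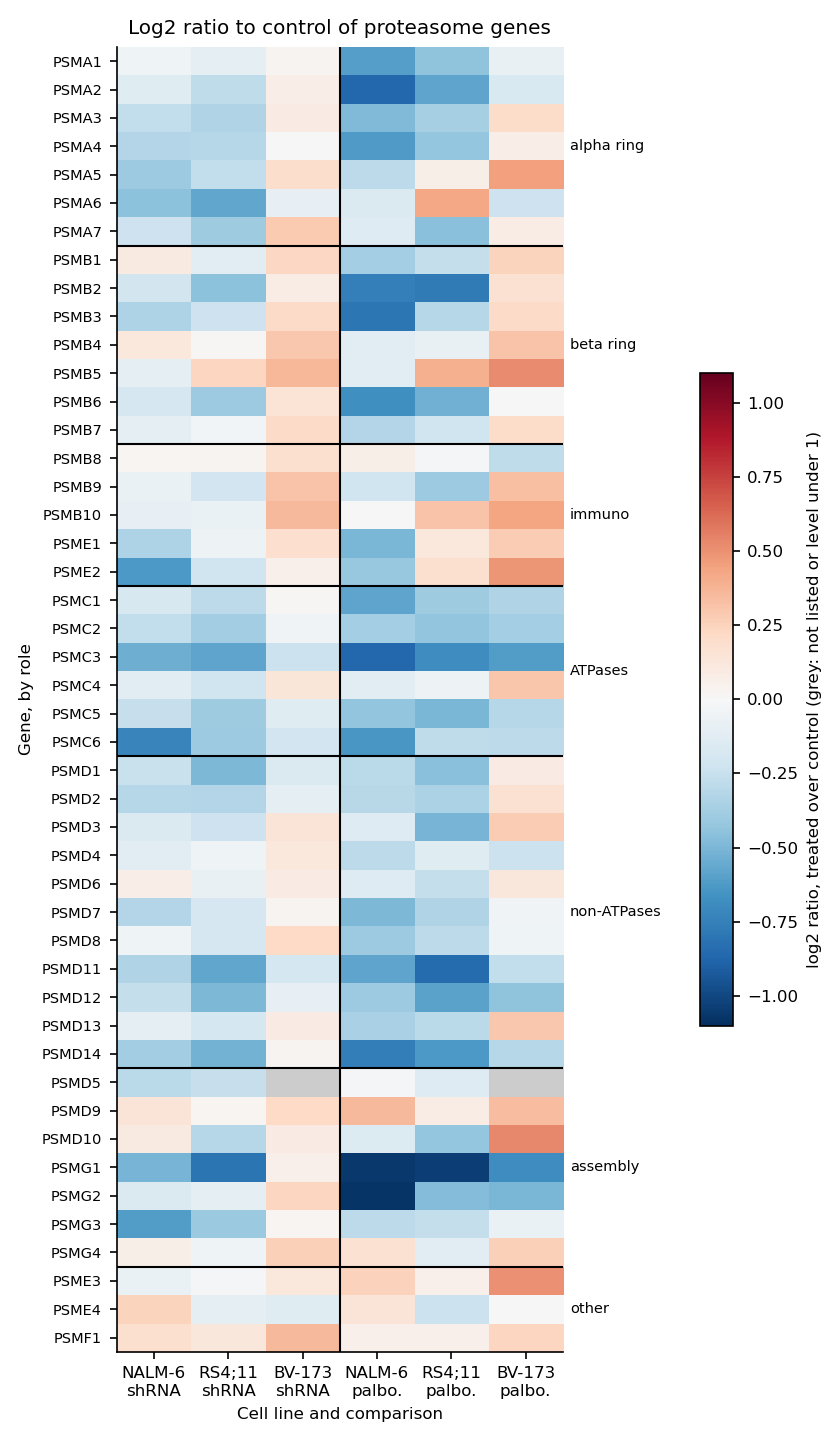
Log2 ratio of treated over control for 46 proteasome genes (rows, by role) in 6 comparisons (columns), blue lower and red higher. NALM-6 and RS4;11 columns are mostly blue, while in BV-173 34 of the 45 tested members are higher with knockdown and 26 with palbociclib. Of all 11800 genes, 5851 and 5941 are higher there.

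The limma test called 2 members with palbociclib, *PSMC3* and *PSMG1*, both lower. They were 4.44% of the members, against 7.13% of all genes called lower (841) and 4.56% called higher (538), so the members were not called more often than other genes. No member was called higher. Below an unadjusted p of 0.05 were 11 members (24.4%), all lower, where 17.6% of all genes were lower and 15.7% higher. Beside the 2 called these were *PSMA2*, *PSMC1*, *PSMC2*, *PSMC5*, *PSMC6*, *PSMD11*, *PSMD12*, *PSMD14* and *PSMG2*.

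*PSMC3*, one of the 6 ATPases, fell in every line. Its level went from 2149 to 1180, from 2197 to 1366 and from 2086 to 1363, and the 3 palbociclib groups all lay below the 3 DMSO groups. The log2 ratio was -0.72 ± 0.14 (SE, n = 3 lines, 95% interval -1.09 to -0.35, adjusted p = 0.0431, limma), and the call was lost without a minimum level and with any line left out. With shCCND3 it went from 2203 to 1515, 1859 to 1242 and 2315 to 1959, a log2 ratio of -0.45 ± 0.13 (SE) that did not pass (adjusted p = 0.115, limma).

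*PSMG1*, a chaperone that pairs with *PSMG2* to build the alpha ring, fell from 1639 to 786.8, from 1966 to 958.5 and from 2347 to 1464 with palbociclib. The log2 ratio was -0.92 ± 0.16 (SE, n = 3 lines, 95% interval -1.32 to -0.52, adjusted p = 0.0342, limma), and the call was lost with any line left out. Knockdown gave 1554 to 1089, 1566 to 898.2 and 2225 to 2310, so BV-173 did not share it, and the mean of -0.42 did not pass (adjusted p = 0.233, limma). Its partner *PSMG2* was at 1870 and 884.2, 1689 and 1212, and 1780 and 1256 with DMSO and palbociclib (log2 ratio -0.69 ± 0.18 SE, adjusted p = 0.076, limma). With scrambled shRNA and shCCND3 *PSMG2* was at 1348 and 1204, 1328 and 1232, and 1543 and 1820. *PSMD9*, which guides ATPase assembly, was slightly higher in all 6 comparisons, by a log2 ratio of 0.02 to 0.35, with no call.

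**Figure D3:**
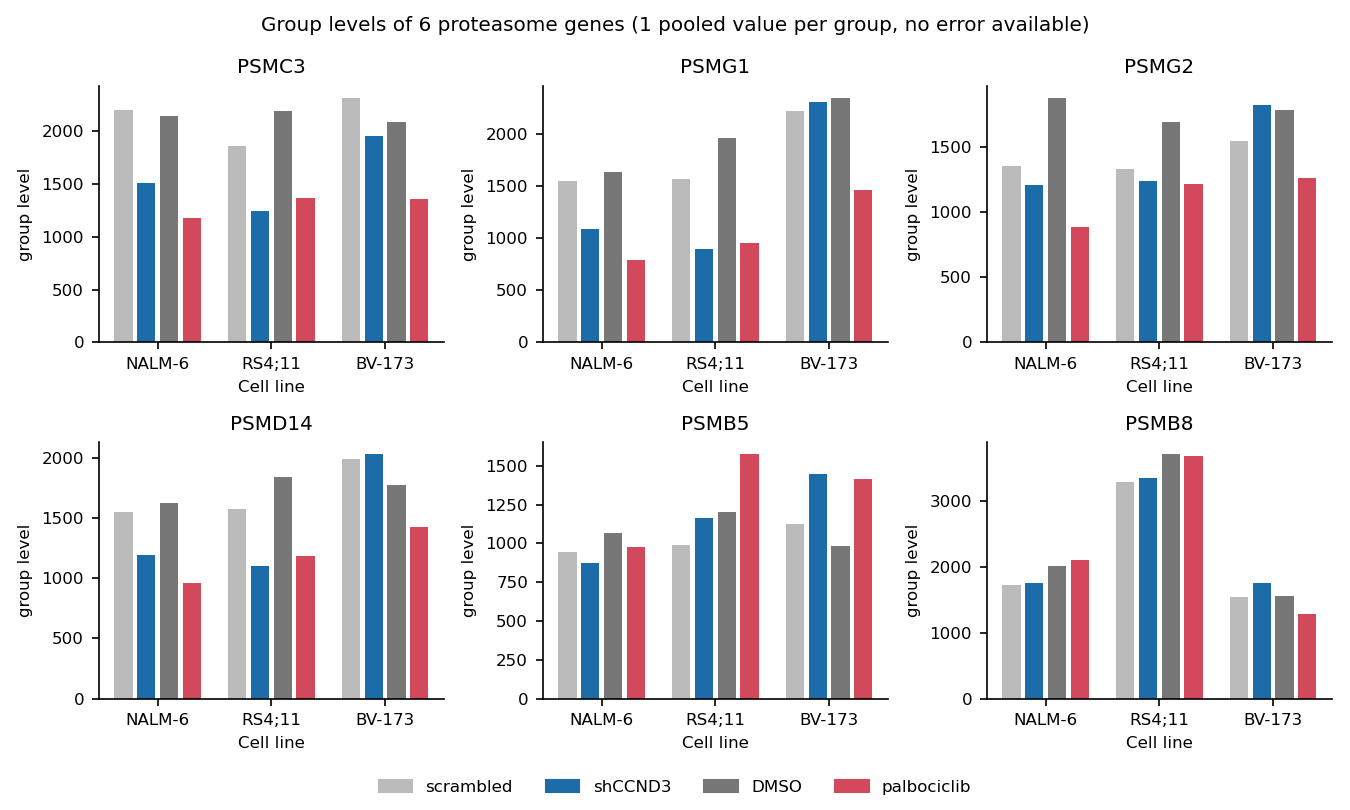
Group levels (1 pooled value per group, no error available) of PSMC3, PSMG1, PSMG2, PSMD14, PSMB5 and PSMB8 in the 3 lines. The palbociclib bars of PSMC3 and PSMG1 lie below the DMSO bars in each line, while all PSMB8 bars of RS4;11 lie above those of the other lines.

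In the regulatory particle, 5 of the 6 ATPases (*PSMC1*, *PSMC2*, *PSMC3*, *PSMC5* and *PSMC6*) were lower in all 3 lines with palbociclib, and *PSMC4* was not. Of all genes, 29.2% were lower in all 3 lines with palbociclib. The median of the 17 genes was -0.40, -0.39 and -0.24 with palbociclib and -0.26, -0.32 and 0.01 with knockdown. *PSMC4* had log2 ratios of -0.13, -0.06 and 0.31. *PSMC6* went from 1274 to 769.9 in NALM-6 with knockdown, the lowest ratio of the class (-0.73). Among non-ATPases the lowest mean was that of *PSMD14*, the enzyme that removes ubiquitin at the gate, with palbociclib (log2 ratios -0.76, -0.63 and -0.32, adjusted p = 0.0822, limma), and that of *PSMD11*, a scaffold subunit, with knockdown (-0.33, -0.57 and -0.19, adjusted p = 0.168, limma). *PSMD11* also had the lowest value of the class in RS4;11 with palbociclib, from 2881 to 1602 (-0.85). *PSMD6*, the scaffold subunit with the highest mean in both treatments, stayed between -0.26 and 0.12.

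In the constitutive core the medians were -0.43, -0.34 and 0.18 with palbociclib and -0.19, -0.27 and 0.17 with knockdown. With palbociclib, NALM-6 had all 14 core genes lower, RS4;11 had 11 and BV-173 had 3. Of all 11800 genes, 6026, 5996 and 5859 were lower. *PSMA2* had the lowest alpha ring mean with palbociclib (-0.86, -0.58 and -0.17) and *PSMB2* the lowest beta ring mean in both treatments. *PSMB2* was at 4110 and 2438, 5273 and 3072, and 2767 and 3107 with DMSO and palbociclib, lower by over 1.5-fold in 2 lines and higher in BV-173. Of the trio that cuts proteins, *PSMB6* and *PSMB7* were at log2 ratios of -0.68, -0.53 and 0.00 and of -0.32, -0.22 and 0.20 with palbociclib.

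*PSMB5*, the chymotrypsin-like subunit and the main target of bortezomib, had the highest beta ring mean in both treatments. Its level went from 1066 to 978.3, from 1202 to 1574 and from 985.3 to 1415 with palbociclib, so it was higher in 2 lines in which *PSMB6* was lower or level. With knockdown it was at 944.1 and 875.6, 988.3 and 1164, and 1124 and 1451. Neither mean passed the test (log2 ratio 0.26 ± 0.18 SE and 0.17 ± 0.14 SE, adjusted p = 0.365 and 0.515, limma). Among alpha subunits *PSMA6* went different ways: with knockdown it was lower in each line (6529 to 4774, 7241 to 4883 and 5833 to 5479), and with palbociclib it was at 6940 and 6212, 9466 and 12676, and 6169 and 5262. *PSMA1* with knockdown and *PSMA5* with palbociclib had the highest alpha means, of -0.04 and 0.08.

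**Figure D4:**
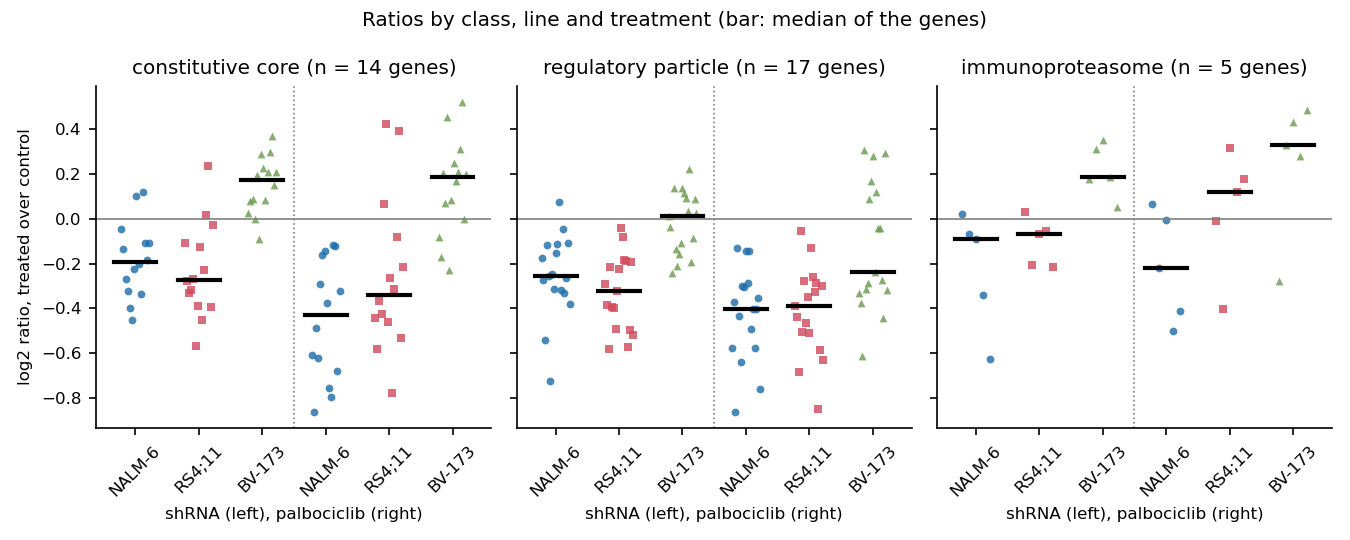
Log2 ratios of the genes of 3 classes (points) with their median (bar) by line, for knockdown left and palbociclib right of the dotted line. Core and regulatory medians lie below 0 in NALM-6 and RS4;11, and in BV-173 the core median is 0.17 and 0.18.

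No member of the immunoproteasome set was called in any test of the fit. The knockdown and difference tests called 0 of 11800 genes. With palbociclib 7.13% of all genes were called lower and 4.56% higher, so 0 of 5 says little about the set. Of the set, *PSME2* in NALM-6 with knockdown was the only value past 1.5-fold (3396 to 2198). Medians were -0.09, -0.07 and 0.19 with knockdown and -0.22, 0.12 and 0.33 with palbociclib. *PSMB8* had a mean log2 ratio of 0.07 with knockdown and -0.07 with palbociclib (95% intervals -0.22 to 0.37 and -0.46 to 0.31). Its level set RS4;11 apart, at 3288 to 3707 against 1283 to 2103 in the other 8 groups, while NALM-6 and BV-173 overlapped.

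*PSMB9* was at 1142 and 979.3, 1318 and 997, and 923.4 and 1159 with DMSO and palbociclib, and at 758.5 and 723.1, 1084 and 938.4, and 948.8 and 1178 with scrambled shRNA and shCCND3. It was lower in the first 2 lines and higher in BV-173 under both treatments. *PSMB10* with palbociclib was at 1336 and 1329, 1703 and 2121, and 1223 and 1648 (mean log2 ratio 0.25, 95% interval -0.16 to 0.65), and with knockdown its mean was 0.06. The mean ratio of *PSME1* was -0.07 with knockdown and -0.04 with palbociclib. *PSME2* was at 3546 and 2663, 2937 and 3316, and 2589 and 3627 with DMSO and palbociclib, lower in 1 line and higher in 2.

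Within a group, the balance of immunoproteasome and constitutive subunits moved in different ways for the 3 pairs, here as ratios of levels per kb. *PSMB9* over *PSMB6* was higher than in the control in all 6 comparisons, from 0.378 to 0.409, from 0.633 to 0.721 and from 0.516 to 0.577 with knockdown, and from 0.461 to 0.633, from 0.636 to 0.695 and from 0.621 to 0.780 with palbociclib. *PSMB10* over *PSMB7* was higher in 5 of 6, with mean log2 changes of 0.04 ± 0.10 and 0.36 ± 0.16 (SD, n = 3 lines). *PSMB8* over *PSMB5* was lower in 4 of 6, and in BV-173 with palbociclib it went from 1.72 to 0.987, where *PSMB5* was higher and *PSMB8* lower. Measured against the geometric mean of the core in place of its partner, *PSMB9* with palbociclib changed by a log2 of 0.09 ± 0.21 (SD) in place of 0.30 ± 0.17, and *PSMB8* with knockdown by 0.16 ± 0.12 in place of -0.09 ± 0.19, so these readings depend on the partner. No test was run on the ratios.

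**Figure D5:**
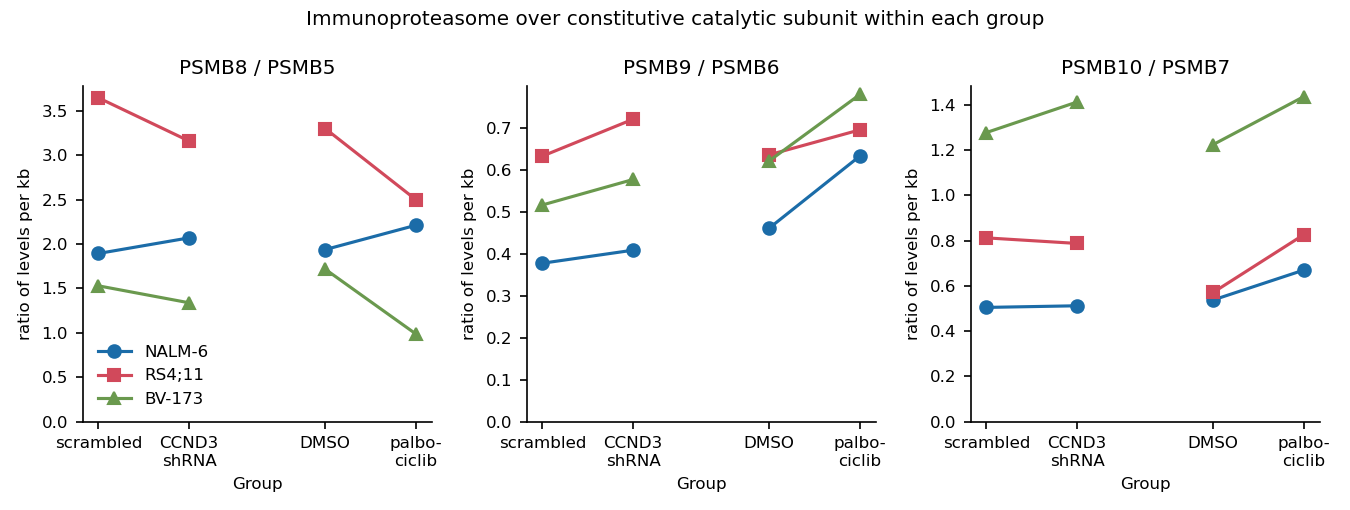
Ratio of level per kb of each immunoproteasome catalytic subunit to its constitutive partner in control and treated groups, for knockdown (left pair) and palbociclib (right pair). Lines join the control and treated group of 1 cell line, and all 6 lines of PSMB9 over PSMB6 slope upward.

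Among the other activators and the inhibitor, *PSMF1*, which blocks the core, was higher in all 6 comparisons, by log2 ratios of 0.05 to 0.36, none past 1.5-fold. *PSME3*, the nuclear cap, had log2 ratios of 0.26, 0.06 and 0.51 with palbociclib and -0.07, -0.02 and 0.11 with knockdown. *PSME4* had the lowest mean of the 3 in both treatments, 0.00 and -0.03. Of these genes none passed the test.

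The difference of the treatments within each line called 0 members and 0 genes (0% in both directions, limma, adjusted p under 0.05). At an unadjusted p under 0.05 there were 2707 genes, 12.5% of all higher with knockdown than with palbociclib and 10.4% lower, and 4 members, *PSMA2*, *PSMG1* and *PSMG2*, which were higher, and *PSME2*, which was lower. For *PSMG2* the difference was 0.68 ± 0.16 (SE, n = 3 lines, 95% interval 0.27 to 1.09, adjusted p = 0.116, limma). The intensity trend with a robust prior called 635 genes and *PSMG2*.

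Across the 45 genes, the log2 ratios of NALM-6 and RS4;11 had Pearson's r of 0.66 with knockdown and 0.65 with palbociclib, against 0.62 and 0.72 across all genes. Those of NALM-6 and BV-173 had r of 0.51 and 0.58, against 0.35 and 0.62. Knockdown and palbociclib, which have separate controls, had r of 0.57, 0.67 and 0.56 across the members, against 0.66, 0.79 and 0.50. These are descriptions over genes measured in the same libraries, which are not independent.

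Proliferation genes were read beside these results. *MKI67*, *TOP2A*, *CCNB1*, *CDK1*, *MCM2*, *MCM5*, *PCNA* and *E2F1* were lower in all 6 comparisons, 8 of 8, with median log2 ratios of -1.25, -1.73 and -0.56 with knockdown and -2.78, -3.76 and -1.66 with palbociclib, 7 of 8 called with palbociclib. Of all genes, 24.7% were lower in all 3 lines with knockdown and 29.2% with palbociclib, and palbociclib called 7.13% lower. In BV-173 the medians of the 8 proliferation genes were closest to 0 in both treatments, and the median of the 45 members there was 0.09 in each. The part of the proliferation genes in the changes of the proteasome genes was not tested. *PSMC3IP*, matched by its symbol only, was at 301.4 and 35.7, 327.5 and 18.4, and 187.7 and 55.3 with palbociclib (log2 ratio -2.96 ± 0.45 SE, adjusted p = 0.0304, limma). The call was lost without NALM-6 (adjusted p = 0.126, limma).

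Of the genes that work with the proteasome, 14 partners held by name or assembly (*ADRM1*, *POMP*, *USP14*, *UCHL5* and others) had 0 calls in each test, and medians of 0.02 with knockdown and -0.13 with palbociclib. The 9 regulators of the bounce-back response had 0 calls, and *NFE2L1*, the factor that induces proteasome genes, had log2 ratios of -0.09, 0.05 and -0.56 with palbociclib. The 6 ubiquitin and E1 genes and the 8 immunoproteasome regulators, *IRF1* and *NLRC5* among them, had 0 calls. Of all genes, palbociclib called 7.13% lower and 4.56% higher, and the knockdown and difference tests called 0. Among the shuttles and segregase genes, *FAF1*, a cofactor of the segregase *VCP*, was called lower with palbociclib and went from 2567 to 1011, from 1739 to 804 and from 2113 to 1144 (log2 ratio -1.11 ± 0.16 SE, adjusted p = 0.0281, limma). The call was lost with any line left out.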

How the data were processed

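RNA-seq of 34 samples in 12 groups (cell line by treatment, as labelled) was analysed. From oligo-dT libraries the authors cleaned reads (SOAPnuke), aligned them to hg38 (Bowtie2), estimated levels (RSEM) and compared groups in pairs (DESeq2, versions not given in the sources used here). The authors' deposited tables, 1 per comparison, give a signal per group (1 pooled level, scaled within the table, never 0). Their fold changes and p-values of the authors' own comparisons were not used.

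Log2 ratios took a pseudocount of 1, so they understate changes of low genes. Ratios of the 3 lines were tested with limma 3.58.1 (R 4.3.3, constant prior, Benjamini-Hochberg, 11800 genes with a mean level of at least 10), and single comparisons were read by a fold of 1.5 with no test. Since groups hold 1 value, p-values measure the spread between lines. Scripts were tested on simulated data.

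Members and lists were chosen with earlier results of these data known. Named were the immunoproteasome genes with *PSMB5*, *PSMB6* and *PSMB7*, the highest and lowest mean of each role and treatment, members past the fold in 2 lines, called members of the lists and *CCND3*. *PSMG2*, *PSMG3*, *PSMC6*, *PSMD5*, *PSMD10*, *NFE2L1* and the genes named without a call were chosen after their values were seen. Some genes of the lists are not reported here. Promoters are RefSeq's and overlaps GENCODE 44's. Alternatives were another pseudocount, other level minimums, centring, an intensity trend with robust prior, other folds, other partners and leaving out each line. The background of genes at or above the level of the lowest member was added after the data were seen. Python 3.11.15, numpy 2.4.6, pandas 2.3.3 and matplotlib 3.10.9 were used.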

Additional observations from a re-analysis of the deposited data

Results flagged for a closer look

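With palbociclib, 3 proteasome genes lay past a log2 ratio of 0.32 in opposite directions in different lines, 6.67% of the members against 8.46% of all genes, and with knockdown 0 did, against 5.94%. Each line has 1 value per comparison, so the difference was not tested. *PSMD10*, an assembly chaperone of the regulatory particle also known as gankyrin, had log2 ratios of -0.15, -0.42 and 0.53 in the order NALM-6, RS4;11, BV-173, a gap of 0.95 between the highest and the lowest line. *PSME2* had -0.41, 0.17 and 0.49, a gap of 0.90. *PSMB9* had -0.22, -0.40 and 0.33, a gap of 0.73. BV-173 was the highest line in all 3.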

How the results depend on the processing

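Of 190 results under an alternative that answer a comparison, 146 kept their side or stayed within the spread, and 44 moved. Calls with knockdown went from 0 lower and 0 higher to 373 and 118 with a pseudocount of 10, 482 and 204 at a mean level of at least 100, and 649 and 393 with the intensity trend and robust prior, which also called 1 member lower. Leaving out each line gave 0 to 215 lower and 0 to 48 higher. With palbociclib the 841 lower and 538 higher became 0 to 409 and 0 to 190 with a line left out, where BV-173 was the line whose absence kept 409, and 836 were higher with the trend. The 2 members called became 1 with no minimum level, 6 with the trend and 0 with any line left out (0 to 0). The difference went from 0 to 64 lower and 216 higher with a pseudocount of 10, 60 and 207 at a level of at least 100, and 189 and 446 with the trend, which called 1 member higher. Member and line pairs past the fold went from 4 lower and 0 higher with knockdown to 27 and 3 at a log2 ratio of 0.32 and 0 lower at 2-fold, and from 19 and 0 with palbociclib to 52 and 11 at 0.32 and 3 lower at 2-fold. With a line left out, members lower in every line ranged from 10 to 35 with knockdown and 17 to 33 with palbociclib, both highest without BV-173, members higher in every line from 4 to 8 and 3 to 8, and the regulatory particle median with palbociclib from -0.40 to -0.19. Against the core in place of the partner, the mean log2 change of *PSMB8* with knockdown was 0.16, of *PSMB9* 0.10 with knockdown and 0.090 with palbociclib, and of *PSMB10* with knockdown 0.15. The knockdown mean of *PSMG2* turned from -0.01 to 0.066 without NALM-6 and 0.038 without RS4;11, a range of -0.14 to 0.066 over the lines left out. Neither *PSMC3* nor *PSMG1* changed direction under any alternative. *PSMD5* could not be added to the regulatory particle, since it is not listed in 1 table. The causes of these changes were not tested. No paired analysis was possible because the columns hold 1 pooled value per group and carry none of the samples' replicate numbers, and treated and control groups were paired by cell line only.

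With 1 value per group, counting error and the spread between samples cannot be seen, so a change in a single line has no error. The tests set the mean over 3 lines against the spread between them, so a change in 1 or 2 lines also adds to the error.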

Other observations

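Genes that feed the proteasome moved in directions not described above, and none of the values in this paragraph passed the test. *UBA6*, the second ubiquitin-activating enzyme, was lower in all 6 comparisons, by log2 ratios of -0.31, -0.42 and -0.32 with knockdown and -0.69, -0.65 and -0.40 with palbociclib. *UBQLN1*, a shuttle for ubiquitylated proteins, was at 49.9%, 60.2% and 87.6% of its scrambled level with knockdown and had log2 ratios of -0.37, -0.44 and -0.24 with palbociclib. *SYVN1*, the ubiquitin ligase of the endoplasmic reticulum, had 0.55, 0.83 and 0.34 with knockdown. *NFE2L2*, the factor of the oxidative stress response, had -0.75, -0.66 and -0.51 with palbociclib (adjusted p = 0.0522, limma). *RPS27A*, which encodes ubiquitin fused to a ribosomal protein, was higher with knockdown in every line, by 0.20, 0.41 and 0.49.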
